A study of Mus musculus with 9 samples.

Results

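The 7 genes described here, Isl1, Foxa2, Pou4f1, Myod1, Bcl11b, Fezf2 and Dmrta1, encode transcription factors that are best known from other regions of the nervous system or from other tissues. They were chosen from 19147 measured genes for their differences between SmoA2 and wild type (WT) cerebella, so every value of that comparison is a description of the choice and carries no test. The choice set no numerical limit. Ranked by absolute log2 difference between SmoA2 and WT over all 19147 genes, Isl1 was 1, Foxa2 5, Pou4f1 9, Dmrta1 13, Myod1 14 and Bcl11b 15, while Fezf2 was only 156. The 7 genes had 9 probe sets on the array. Isl1 and Bcl11b had 2 each, and the probe set with the highest mean over all arrays gave the main value.

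Gene expression was measured on 9 arrays, each with total RNA from the brain of a separately coded C57BL/6 mouse at postnatal day 5, in groups of 3: SmoA2 mutant, Smo/Smo mutant and wild type. The design text describes the tissue as cerebellum. In SmoA2 mice, a fragment of the promoter of the factor ND2 (Neurod2), active in granule neuron precursors, drives an activated SmoA2 form of Smoothened, the membrane protein that relays Sonic hedgehog signals. The labels do not explain Smo/Smo, and it was taken by elimination as the SmoA1 line, whose transgene is built in the same way with the SmoA1 mutation. Codes of Smo/Smo animals start with other letters than all other codes, so source and genotype cannot be told apart for that line. Xist and Y-linked probe sets gave 2 males of 3 in SmoA2, 2 of 3 in Smo/Smo and 1 of 3 in WT.

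Array medians lay between 91.0 and 95.1 units of intensity. Y-linked probe sets in the 4 female mice read from 4.7 to 47.4, a range that serves here as background. Markers of granule neuron progenitors (12 of 12) and of Purkinje cells (11 of 11) had group means above that range in all 3 groups, while 8 of 12 forebrain markers lay within it in all 3. Smo itself averaged 375.1 ± 68.2 in SmoA2, 407.0 ± 5.6 in Smo/Smo and 417.3 ± 24 in WT (SD, n = 3 each), with no call in either comparison (adjusted p = 0.545 and 0.962). Whether its probe set matches the transgene is not known. Neurod2 averaged 5175 ± 116.2 in SmoA2, 5593.7 ± 77.1 in Smo/Smo and 5823.1 ± 231 in WT, with no call in either comparison with WT (limma adjusted p = 0.172 and 0.839). The hedgehog-induced factor Gli1 averaged 1188.1 ± 94.8 in SmoA2, 887.6 ± 32.4 in Smo/Smo and 839.5 ± 40.5 in WT. Choroid plexus was uneven: WT replicate 3 had 30.9 units of transthyretin (Ttr), against 2682.6 and 2457.9 in the other WT arrays and 3425.0 to 3906.6 in SmoA2. The 11 choroid plexus markers summed to 8789 to 10393 in SmoA2, 10553 to 12141 in Smo/Smo and 2051 to 6609 in WT.

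Factors of this kind act as selectors of cell identity. Isl1, a LIM homeodomain protein, and Pou4f1, a POU homeodomain protein, work together in sensory neurons, and Isl1 with the LIM factor Lhx3 specifies spinal motor neurons. Foxa2, a forkhead factor, is induced in the floor plate by Sonic hedgehog acting through Gli factors. Myod1 is the bHLH factor that determines skeletal muscle. Fezf2 and its zinc finger partner Bcl11b (Ctip2) specify subcerebral projection neurons of the cortex, and Bcl11b is also expressed in Purkinje cells. Dmrta1 belongs to the DMRT family, which shares a zinc-binding DNA domain and includes factors that pattern the telencephalon.

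The sequences just around the starts of these genes are shown because hedgehog signals reach their target genes through Gli factors, whose motif can be searched there. RefSeq windows of 300 bases (250 before and 50 after a start, GRCm38.p6) were matched for 6 of the 7 genes, with 8 windows in all, of which 3 belong to Foxa2. In the following windows, given on the gene's strand from 5′ to 3′, capitals mark CCACCC or its complement GGGTGG, the core of the Gli motif. The Isl1 window spans chr13:116309639-116309938 (minus strand), the Foxa2 window chr2:148045899-148046198 (minus), the Bcl11b window chr12:108003365-108003664 (minus) and the Dmrta1 window chr4:89687948-89688247 (plus).
Isl1: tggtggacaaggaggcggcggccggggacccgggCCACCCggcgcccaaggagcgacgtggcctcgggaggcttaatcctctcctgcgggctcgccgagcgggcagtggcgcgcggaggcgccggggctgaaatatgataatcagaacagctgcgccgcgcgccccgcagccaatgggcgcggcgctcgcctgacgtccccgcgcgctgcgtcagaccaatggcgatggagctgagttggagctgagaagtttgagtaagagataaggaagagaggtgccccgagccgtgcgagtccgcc
Foxa2: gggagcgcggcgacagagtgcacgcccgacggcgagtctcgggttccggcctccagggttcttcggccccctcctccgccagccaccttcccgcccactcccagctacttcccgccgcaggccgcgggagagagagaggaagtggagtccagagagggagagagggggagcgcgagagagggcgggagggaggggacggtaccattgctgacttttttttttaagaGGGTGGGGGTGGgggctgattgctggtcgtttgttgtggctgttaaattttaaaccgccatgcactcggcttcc
Bcl11b: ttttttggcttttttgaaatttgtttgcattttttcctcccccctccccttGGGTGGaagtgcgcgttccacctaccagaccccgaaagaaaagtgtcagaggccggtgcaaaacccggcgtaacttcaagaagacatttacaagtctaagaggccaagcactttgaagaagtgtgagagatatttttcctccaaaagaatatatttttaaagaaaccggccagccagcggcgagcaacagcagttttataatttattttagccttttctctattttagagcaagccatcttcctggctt
Dmrta1: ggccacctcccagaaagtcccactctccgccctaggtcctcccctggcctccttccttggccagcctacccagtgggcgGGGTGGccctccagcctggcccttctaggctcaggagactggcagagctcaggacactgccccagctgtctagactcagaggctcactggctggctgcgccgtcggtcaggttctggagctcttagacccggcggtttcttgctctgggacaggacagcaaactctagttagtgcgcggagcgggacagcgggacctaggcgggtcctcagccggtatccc
The core was present in 5 of the 8 windows, those of Isl1, Bcl11b and Dmrta1 and 2 of Foxa2, and in 31.5% of all 32851 windows. It therefore stood beside genes that were higher in SmoA2 and beside Dmrta1, which was lower. The full Gli motif GACCACCCA, searched on both strands and containing the core, was in 0 of the 8 windows and in 0.253% of all windows.

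The windows differed in their content of CpG, the dinucleotide that clusters in the promoters of many developmental regulators. The Pou4f1 window (chr14:104467950-104468249, minus strand) is shown with its CpG in capitals, because it was the extreme of the group.
Pou4f1: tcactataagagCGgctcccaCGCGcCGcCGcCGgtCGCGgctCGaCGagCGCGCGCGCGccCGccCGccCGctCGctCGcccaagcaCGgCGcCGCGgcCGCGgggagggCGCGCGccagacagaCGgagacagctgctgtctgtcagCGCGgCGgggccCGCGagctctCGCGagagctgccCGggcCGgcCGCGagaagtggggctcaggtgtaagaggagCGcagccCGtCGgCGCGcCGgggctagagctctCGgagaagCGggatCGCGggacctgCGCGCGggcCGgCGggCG
It held 57 CpG, more than 99.8% of all windows had, at 78.3% GC. The Isl1 window held 37 (above 94.4% of windows), the 3 Foxa2 windows 12, 23 and 13, Fezf2 20, Dmrta1 13 and Bcl11b 9, against a median of 7 over all windows. Every member window was thus above the median. The E-box CAGCTG, a sequence read by Myod1 and other bHLH factors, was in the windows of Isl1, Pou4f1 and Dmrta1 and in 16.3% of all windows. The forkhead motif TGTTTAC (3.65% of all windows) and the homeodomain core TAATTA (5.29%), searched on both strands, were in 0 of the 8.

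Isl1 had the largest difference between SmoA2 and WT of all genes. Its intensity was 601.6, 430.3 and 579.2 in SmoA2, 161.8, 142.5 and 161.7 in Smo/Smo, and 64.6, 70.9 and 55.2 in WT. All 3 groups were apart, and the WT arrays lay only just above the Y-linked range. The log2 difference between SmoA2 and WT was 3.07 ± 0.14 (SE of the fit, n = 3 per group). Between Smo/Smo and WT, a comparison whose Smo/Smo arrays played no part in the choice but which shares the WT arrays with it, Isl1 rose 2.45-fold (log2 difference 1.29 ± 0.14, limma adjusted p = 0.00591). This call held in all 19 alternative fits (adjusted p 0.000582 to 0.0478), and the difference was 1.10 between males and 1.44 between females of these groups. Those 2 values rest on WT replicate 2 as the only WT male and Smo/Smo replicate 1 as the only Smo/Smo female. The other Isl1 probe set read 31.0 to 52.0 in SmoA2, 22.0 to 28.1 in Smo/Smo and 17.8 to 18.3 in WT. All arrays but SmoA2 replicate 1 stood within the Y-linked range on it, and its Smo/Smo difference of 0.48 ± 0.18 was not called (adjusted p = 0.477).

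Foxa2 had the same order of groups and more spread. It read 233.5, 296.7 and 391.6 in SmoA2, 157.0, 80.8 and 148.1 in Smo/Smo, and 55.7, 51.2 and 44.2 in WT. The groups did not overlap, SmoA2 replicate 3 was the highest array, and Smo/Smo replicate 2 was well below the other Smo/Smo arrays. WT replicate 3 lay within the Y-linked range and the other WT arrays only just above it. The log2 difference was 2.58 ± 0.26 between SmoA2 and WT. Between Smo/Smo and WT it was 1.30 ± 0.26, as large as that of Isl1 but with no call (adjusted p = 0.114). Without Smo/Smo replicate 2 this difference was 1.61 and passed (adjusted p = 0.0263), and with an intensity trend and robust variances it passed at the same size (adjusted p = 0.0364).

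Pou4f1 was near background outside SmoA2. Its intensity was 135.7, 117.8 and 121.4 in SmoA2, 44.1, 35.7 and 30.4 in Smo/Smo, and 27.0, 37.7 and 20.0 in WT. All Smo/Smo and WT arrays lay within the Y-linked range, and these groups overlapped. The measured log2 difference between SmoA2 and WT was 2.19 ± 0.21, and against the top of the Y-linked range Pou4f1 was at least 2.63-fold higher in SmoA2. For Smo/Smo against WT, both at background, the adjusted p was 0.648.

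Myod1 was well above background in every group. It read 477.4, 438.6 and 525.0 in SmoA2, 149.5, 135.7 and 148.5 in Smo/Smo, and 109.7, 120.8 and 132.0 in WT. SmoA2 stood far above both other groups, and the lowest Smo/Smo array was only just above the highest WT array. The log2 difference was 1.99 ± 0.09 between SmoA2 and WT. In Smo/Smo it was 0.26 ± 0.09 and not called (adjusted p = 0.436).

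**Figure D1:**
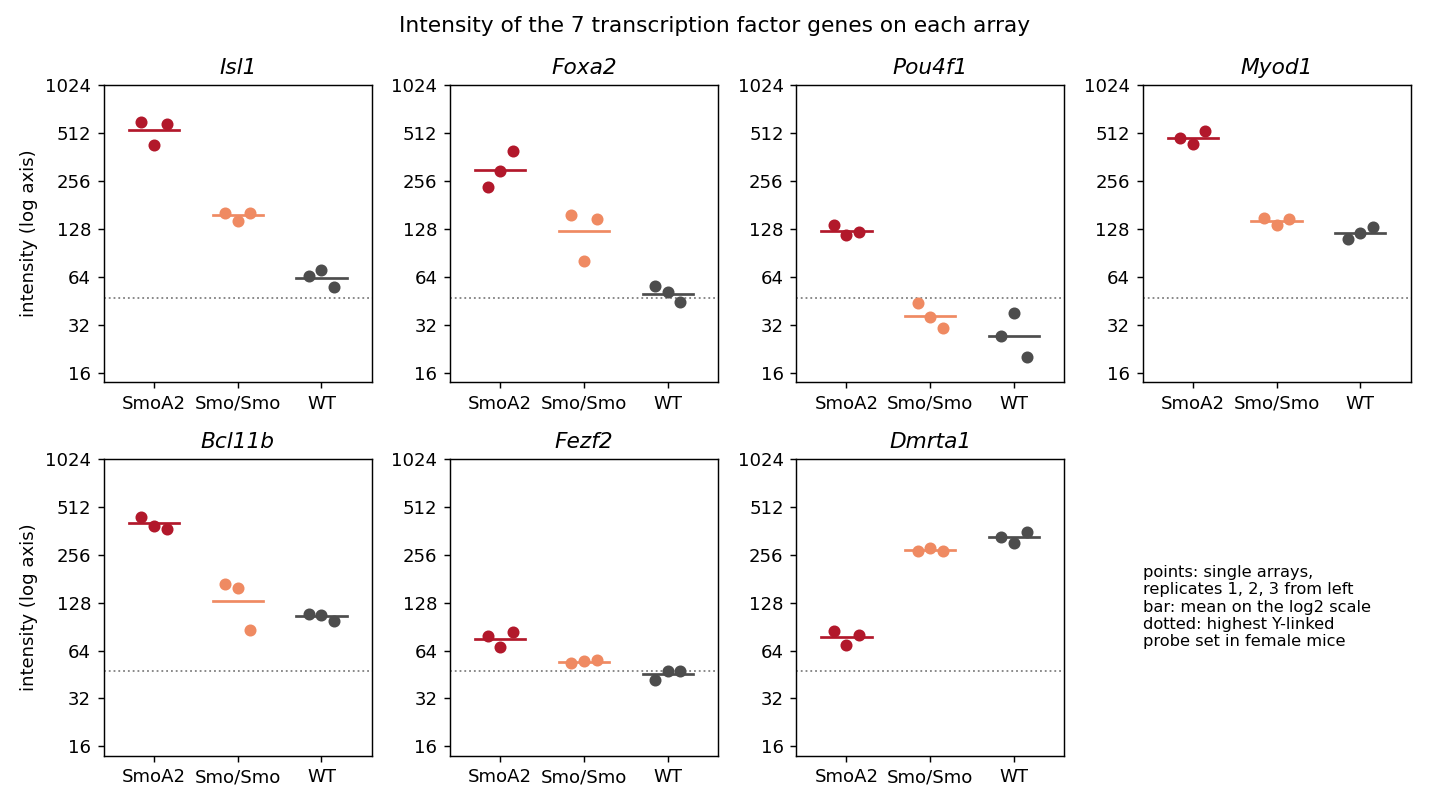
Intensity of the main probe set (log axis) on each array, with SmoA2, Smo/Smo and WT from left to right in each panel. SmoA2 stands apart in all 7 genes, above in 6 and below in Dmrta1, and Pou4f1 lies under the dotted line of 47.4 in Smo/Smo and WT.

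Bcl11b and Fezf2, partners in the cortex, differed in size. Bcl11b read 443.9, 389.8 and 372.3 in SmoA2, 166.7, 157.0 and 85.9 in Smo/Smo, and 108.9, 107.7 and 98.5 in WT. Smo/Smo replicate 3 lay below every WT array while the other Smo/Smo arrays lay above them, so these groups overlapped. The log2 difference was 1.93 ± 0.22 between SmoA2 and WT and 0.32 ± 0.22 between Smo/Smo and WT (adjusted p = 0.747). Without Smo/Smo replicate 3 the Smo/Smo difference was 0.62 (adjusted p = 0.066). The other Bcl11b probe set read 58.3 to 84.6 in SmoA2, and its Smo/Smo (30.1 to 41.7) and WT (26.9 to 29.7) arrays lay within the Y-linked range. That gave SmoA2 at least 1.57-fold higher than WT on this probe set.

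Fezf2 had the smallest difference. It read 79.2, 67.1 and 83.4 in SmoA2, 53.6, 54.6 and 55.7 in Smo/Smo, and 42.0, 47.5 and 47.5 in WT. The groups did not overlap, yet the whole scale lay near background, with the WT mean inside the Y-linked range. The log2 difference between SmoA2 and WT was 0.74 ± 0.09, and Fezf2 was at least 1.60-fold higher in SmoA2. In Smo/Smo it was 0.26 ± 0.09 (adjusted p = 0.424).

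Dmrta1 was the member that was lower. It read 84.4, 69.1 and 79.6 in SmoA2, 269.5, 279.6 and 269.5 in Smo/Smo, and 330.1, 303.6 and 357.0 in WT. All 3 groups were apart, with SmoA2 far below the others and every array above the Y-linked range. The log2 difference was -2.09 ± 0.09 between SmoA2 and WT, which is 4.25-fold lower in SmoA2, and -0.27 ± 0.09 between Smo/Smo and WT (adjusted p = 0.384). In whole tissue, fewer cells of a type and less RNA per cell cannot be told apart, for Dmrta1 as for every gene here.

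**Figure D2:**
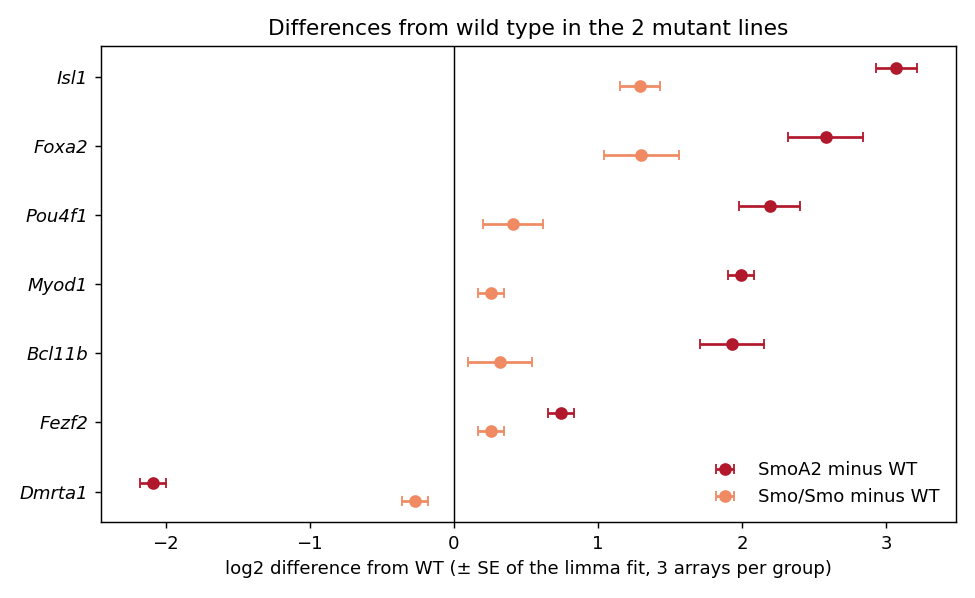
Log2 differences from WT of the 7 genes, with SE of the limma fit, for SmoA2 (dark red) and Smo/Smo (orange), which share the same 3 WT arrays. Isl1 (3.07 and 1.29) and Foxa2 (2.58 and 1.30) are high in both lines, while Myod1 stands at 1.99 and 0.26 and Dmrta1 at -2.09 and -0.27.

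Between Smo/Smo and WT, 1 of the 7 genes was called in limma, Isl1, against 0.371% of all genes (0.214% higher and 0.157% lower), and 5 had an unadjusted p under 0.05. The share of all genes under that unadjusted cut was not counted, here or for the lists and neighbours below. Counts at that cut therefore cannot show whether such genes were few or many. The groups did not overlap in 5 of the 7, against 15.9% of all genes; the exceptions were Pou4f1 and Bcl11b. The WT arrays took part in choosing the genes, so these counts are not free of the choice. Between SmoA2 and WT the groups were apart in all 7, against 19.1% of all genes, and between SmoA2 and Smo/Smo in all 7, against 18.2%. Nothing was read from those 2 counts, as the SmoA2 arrays made the choice. The log2 difference between SmoA2 and Smo/Smo was 1.78 ± 0.14 for Isl1, 1.28 ± 0.26 for Foxa2, 1.73 ± 0.09 for Myod1, 1.61 ± 0.22 for Bcl11b, 0.48 ± 0.09 for Fezf2 and -1.82 ± 0.09 for Dmrta1. Pou4f1, within the Y-linked range on all Smo/Smo arrays, was at least 2.63-fold higher in SmoA2 than in Smo/Smo. The SD within a group ran from 0.11 to 0.37 on the log2 scale in SmoA2, from 0.03 to 0.53 in Smo/Smo and from 0.08 to 0.46 in WT.

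Within groups, 9 arrays are too few to settle whether the genes varied together. The correlation of their deviations from the group means over the 9 arrays had a median of 0.11 over the 21 pairs, and was above 0 in 15 of them. It was highest for Myod1 with Fezf2 (0.81) and lowest for Pou4f1 with Dmrta1 (-0.39). Of the 7 genes, 4 were highest in SmoA2 replicate 1, 3 in replicate 3 and 0 in replicate 2. The differences were of like size without WT replicate 3, the array with little transthyretin: there SmoA2 minus WT was 2.97 for Isl1, 2.49 for Foxa2, 1.97 for Pou4f1, 2.06 for Myod1, 1.89 for Bcl11b, 0.77 for Fezf2 and -2.03 for Dmrta1 on the log2 scale. Leaving out that array did not balance the choroid plexus, as its markers still had a median log2 difference of 0.66, with 6 of 11 called in limma. The part of choroid plexus in the differences of the 7 genes was not tested. Between males alone, SmoA2 minus WT was 2.82 for Isl1, 2.74 for Foxa2, 1.67 for Pou4f1, 1.99 for Myod1, 1.82 for Bcl11b, 0.65 for Fezf2 and -2.03 for Dmrta1. Between females alone it was 3.33, 2.23, 2.55, 1.99, 2.10, 0.83 and -2.02 for the same genes in that order. These values rest on 1 WT male and 1 SmoA2 female, and since the groups do not overlap their direction is fixed by the choice of genes.

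Close relatives of the 7 factors were measured as well, and none of 13 was called between SmoA2 and WT in limma, with 2 at an unadjusted p under 0.05. Over all genes 2.69% were called, 0.961% higher and 1.73% lower. Isl2, the partner of Isl1 in motor neurons, averaged 91.3 ± 6.2 in SmoA2, 81.9 ± 13.7 in Smo/Smo and 89.4 ± 3.3 in WT. Bcl11a, the relative of Bcl11b, averaged 999.5 ± 35.6 in SmoA2, 1058.2 ± 21.2 in Smo/Smo and 1101.2 ± 58.0 in WT (adjusted p = 0.322 for SmoA2 against WT). Foxa1, Foxa3, the POU factor Pou4f3, the muscle factors Myf5, Myf6 and Myog, and the DMRT genes Dmrta2, Dmrt2, Dmrt3 and Dmrtc2 had group means within the Y-linked range in all 3 groups. Dmrt1 lay at the edge of it, with log2 means of 5.60 in SmoA2, 5.59 in Smo/Smo and 5.55 in WT. The median log2 difference of the 13 relatives was -0.02 in SmoA2 against WT, beside 0.01 over all genes, and 0.05 in Smo/Smo against WT, where none was called and 0 had an unadjusted p under 0.05.

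Isl1 works with other LIM complex genes in motor neurons. Of 18 measured LIM complex and motor neuron genes, 1 rose and 0 fell in SmoA2, with 3 higher and 1 lower at an unadjusted p under 0.05. The riser was Lmo1, a LIM-only protein that binds the same cofactor as Isl1, at 136.4 ± 14.9 in SmoA2, 96.8 ± 12.7 in Smo/Smo and 81.8 ± 6.7 in WT (log2 difference of SmoA2 from WT 0.73 ± 0.11, adjusted p = 0.0105). Without WT replicate 3 and SmoA2 replicate 3 its adjusted p was 0.0805. Genes named here for their known link, outside the rule for named genes, include Lhx3, the LIM partner of Isl1. Lhx3 averaged 32.2 ± 4.2 in SmoA2, 50.7 ± 4.9 in Smo/Smo and 45.7 ± 5.7 in WT and was not called between SmoA2 and WT (adjusted p = 0.0686). Its SmoA2 and WT means lay within the Y-linked range, and its Smo/Smo mean only just above it. The motor neuron factor Mnx1 and the acetylcholine enzyme gene Chat stayed within the Y-linked range in SmoA2 and WT, with log2 means of 3.26 and 3.33 in SmoA2 and 3.09 and 3.32 in WT.

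Of 16 sensory neuron genes, the field of Isl1 and Pou4f1, 1 rose and 1 fell in SmoA2. Tlx3, a homeodomain factor of excitatory sensory neurons that granule cells also use, rose by 0.68 ± 0.14 (adjusted p = 0.0422), a call lost in 7 of the 9 fits without 1 array (adjusted p up to 0.152). Neurog1, the bHLH factor of early sensory neurons, fell to 61.9 ± 3.9 in SmoA2, against 99 ± 3.5 in WT (log2 difference -0.68 ± 0.06, adjusted p = 8e-04). Markers of sensory ganglia and their glia (0 of 6 called, 1 at an unadjusted p under 0.05) summed to 1782 to 2103 in SmoA2 and 2044 to 2365 in WT. Habenula markers, another site of Pou4f1, summed to 3000 to 3159 in SmoA2 and 2654 to 2797 in WT, with 1 of 7 higher (the nicotinic receptor gene Chrna3, 0.35 ± 0.06, a call lost in 5 of 9 fits without 1 array) and 1 lower (the neuropeptide gene Tac2, -0.63 ± 0.08). The part of habenular tissue in the Pou4f1 difference was not tested. Brainstem and midbrain markers summed to 5097 to 5351 in SmoA2 and 5152 to 5236 in WT, with 0 of 15 called and 4 at an unadjusted p under 0.05.

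Among 20 genes of the floor plate and ventral midline, the setting of Foxa2, 4 rose in SmoA2 and 0 fell, with 6 higher and 5 lower at an unadjusted p under 0.05. The risers were Gli1 (0.50 ± 0.07), the hedgehog receptor gene Ptch1 (0.26 ± 0.05), the hedgehog-binding inhibitor gene Hhip (0.48 ± 0.09) and the axon repellent gene Slit1 (0.62 ± 0.11). All but Slit1 are direct hedgehog targets in many tissues. The call of Ptch1 was lost in 9 of 9 fits without 1 array, and those of Hhip and Slit1 in 4 each. Without WT replicate 3 and SmoA2 replicate 3 the list kept 1 call, that of Hhip (adjusted p = 0.0388), and Gli1 had an adjusted p of 0.0775. Shh itself, made by the floor plate and by Purkinje cells, averaged 487.9 ± 72.8 in SmoA2, 574.1 ± 14.9 in Smo/Smo and 656.5 ± 52.6 in WT and was not called (adjusted p = 0.0738). Of 16 hedgehog targets and components, 9 rose and 1 fell in SmoA2, with a median log2 difference of 0.27. Those with the smallest p were Cdk6 (0.91 ± 0.06), Atoh1 (0.82 ± 0.07), Gli1 and Sfrp1 (0.55 ± 0.08), all higher. Without WT replicate 3 and SmoA2 replicate 3 there were 3 calls. In Smo/Smo 0 of 16 were called, with 3 at an unadjusted p under 0.05.

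**Figure D3:**
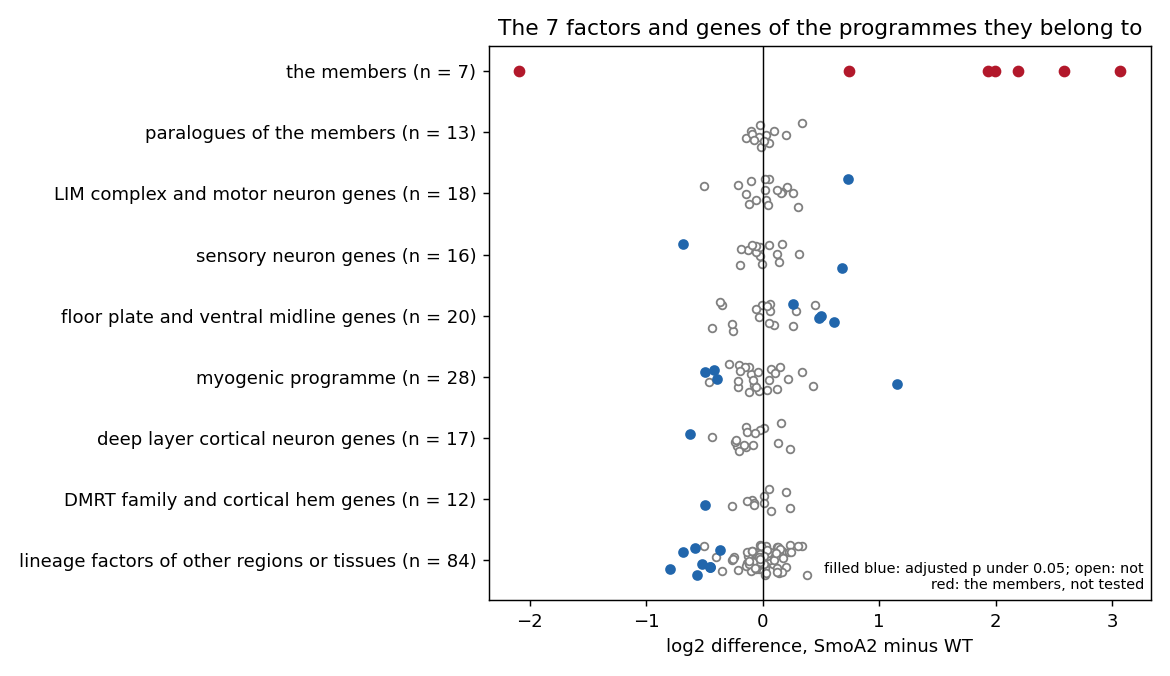
Log2 difference between SmoA2 and WT for the 7 factors (red, not tested) and for lists of related genes, each point a gene, filled where the adjusted p was under 0.05. The 13 relatives lie close to 0 and none of the 84 lineage factors of other regions or tissues is filled on the right. The lists leave out the members.

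The muscle programme is the setting of Myod1. Of 28 measured genes, 1 rose and 3 fell in SmoA2, beside 0.961% higher and 1.73% lower over all genes, with a median log2 difference of -0.08. At an unadjusted p under 0.05, 3 were higher and 5 lower. Cdh15, the gene of M-cadherin, which muscle and cerebellar granule cells both make, rose to 307.0 ± 72.7 in SmoA2, with 147.3 ± 3.1 in Smo/Smo and 136.2 ± 13.2 in WT (log2 difference of SmoA2 from WT 1.15 ± 0.15, adjusted p = 0.00424). The genes that fell were Pax3, a factor of muscle precursors and of neural progenitors (-0.49 ± 0.08), and Id1 and Id3, inhibitors of bHLH factors (-0.42 ± 0.08 and -0.39 ± 0.06). Single arrays ended the call of Pax3 in 3, Id1 in 3 and Id3 in 2 of 9 fits. Without WT replicate 3 and SmoA2 replicate 3 the list kept 1 call, Cdh15 (adjusted p = 0.0178). Myog, the factor that Myod1 switches on in muscle, averaged 27.2 ± 2.7 in SmoA2, 18.9 ± 2.4 in Smo/Smo and 21.4 ± 0.8 in WT, all within the Y-linked range (adjusted p = 0.143). Skeletal muscle markers summed to 944 to 1037 in SmoA2, 963 to 1049 in Smo/Smo and 991 to 1120 in WT. None of these 10 markers was called in SmoA2, 2 being lower at an unadjusted p under 0.05, and the perinatal myosin gene Myh8 fell in Smo/Smo (-0.67, adjusted p = 0.0435).

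Deep layer cortical neurons are the setting of Bcl11b and Fezf2. Of 17 of their genes, 0 rose and 1 fell in SmoA2, with a median log2 difference of -0.14 and, at an unadjusted p under 0.05, 1 higher and 6 lower. The gene that fell was Tbr1, a T-box factor of deep layer neurons and of cerebellar nuclei, at -0.62 ± 0.12 (adjusted p = 0.0244, lost in 4 of 9 fits without 1 array). The corepressor gene Tle4 was not called (0.13 ± 0.06, adjusted p = 0.327). Forebrain markers summed to 1061 to 1272 in SmoA2, 1364 to 1405 in Smo/Smo and 1263 to 1292 in WT, and 1 of 12 was called, lower in SmoA2, with 0 called without either replicate 3 array. Purkinje cell markers, a second setting of Bcl11b, summed to 24852 to 27084 in SmoA2 and 31142 to 32505 in WT. In SmoA2, 4 of these 11 markers fell and 0 rose; at an unadjusted p under 0.05, 9 were lower and 1 was higher. The genes that fell were Lhx5 (-0.66 ± 0.08), Dab1 (-0.50 ± 0.07), Rora (-0.45 ± 0.07) and Pcp2 (-0.61 ± 0.10). The part of Purkinje cells in the Bcl11b difference was not tested. The calls of Rora and Pcp2 were lost in 2 and 3 of 9 fits without 1 array.

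Of 12 genes of the DMRT family and the cortical hem, the setting of Dmrta1, 0 rose and 1 fell in SmoA2, with 0 higher and 1 lower at an unadjusted p under 0.05. The bHLH factor gene Neurog2 fell by 0.49 on the log2 scale (adjusted p = 0.0103), and it had -0.44 in Smo/Smo, where it was not called (adjusted p = 0.0606). Meningeal and fibroblast markers moved in the same direction as Dmrta1: 9 of 14 fell in SmoA2. Among them were Aldh1a2 (-1.57 ± 0.15), Slc22a6 (-1.42 ± 0.12), Msln (-1.36 ± 0.12) and Slc6a13 (-1.05 ± 0.11). The sum of the 14 was 10767 to 12512 in SmoA2 and 14892 to 15394 in WT. All meningeal markers were above the Y-linked range in WT and 2 lay within it in SmoA2. Their part in the Dmrta1 difference was not tested. With WT replicate 3 or SmoA2 replicate 3 left out, 4 of the 14 were called.

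A wider list of 84 lineage factors of other regions or tissues was set beside the members, which it leaves out. The lists were chosen with earlier results known, so its counts cannot show whether such factors were higher in general. In SmoA2, 0 rose and 8 fell, with 5 higher and 12 lower at an unadjusted p under 0.05 and a median log2 difference of -0.02. Of the 84, 49 had SmoA2 means within the Y-linked range, and 48 had WT means within it. Those that fell with the smallest p were Prdm13 (-0.69 ± 0.07, adjusted p = 0.00142), a factor of GABAergic progenitors, and the AP-2 genes Tfap2b (-0.58 ± 0.07), Tfap2a (-0.80 ± 0.11) and Tfap2c (-0.56 ± 0.08). Without WT replicate 3 and SmoA2 replicate 3, 3 of the 8 calls were left. In Smo/Smo none of the 84 was called, and 9 had an unadjusted p under 0.05. Polycomb and Trithorax genes, whose products hold lineage factors silent or active, gave 0 calls among 16 in SmoA2, with 0 at an unadjusted p under 0.05, and 0 in Smo/Smo, with 2.

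The genes next to the members were examined as well. The 2 nearest measured genes on each side, in the order of GRCm38.p6, made 28 neighbours. None was called in SmoA2 or in Smo/Smo in limma, with 3 and 0 at an unadjusted p under 0.05, and log2 differences between SmoA2 and WT ran from -0.57 to 0.38. Cdkn2a and Cdkn2b, cell cycle inhibitor genes next to Dmrta1, gave 0.18 ± 0.20 and 0.12 ± 0.13. Thbd, next to Foxa2, gave -0.57 ± 0.15 (adjusted p = 0.0915). Pou4f1 and Fezf2 both lie on chromosome 14, and none of their 8 neighbours was called in either line.

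The genes whose pattern over the 9 arrays was most like each factor included the transcription factors Sox18, Pou4f1 and Isl1, the latter being members themselves. The share of transcription factors among all genes compared was not counted, so whether they were few or many here was not tested. Likeness was the Pearson correlation of log2 values, given as a description, among 508 genes with a range of at least 1 on the log2 scale; all of these patterns contain the same group differences. Isl1 was followed most closely by Lrig3, a leucine-rich repeat membrane protein (r = 0.995), the procollagen protease gene Adamts14 (0.995) and the laminin chain gene Lama5 (0.995). Foxa2 was followed by the orphan receptor gene Gpr153 (0.963), Sowaha (0.962) and Lama5 (0.960). Sowaha had log2 means of 10.98 in SmoA2, 9.87 in Smo/Smo and 8.28 in WT.

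Pou4f1 was nearest to the neuropeptide gene Adcyap1 (0.992), the cerebellin gene Cbln4 (0.989) and Shisa2 (0.982). Myod1 was nearest to the secreted Wnt modulator gene Sfrp2 (0.988), the synaptotagmin gene Syt15 (0.985) and Sox18, an endothelial factor (0.984). Those 3 genes stood at 1.26, 1.37 and 1.26 above WT in SmoA2 and at 0.13, 0.08 and 0.20 in Smo/Smo on the log2 scale. Bcl11b was nearest to Shisa2 (0.974), Adam34 (0.968) and Pou4f1 (0.965), and Fezf2 to the G1 kinase gene Cdk6 (0.974), the aminopeptidase gene Lap3 (0.973) and Isl1 (0.968). Dmrta1 was nearest to the sodium channel subunit gene Scnn1a (0.993), Sypl2 (0.988) and Gprin3 (0.983), which stood at -0.94, -1.42 and -0.95 relative to WT in SmoA2.

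**Figure D4:**
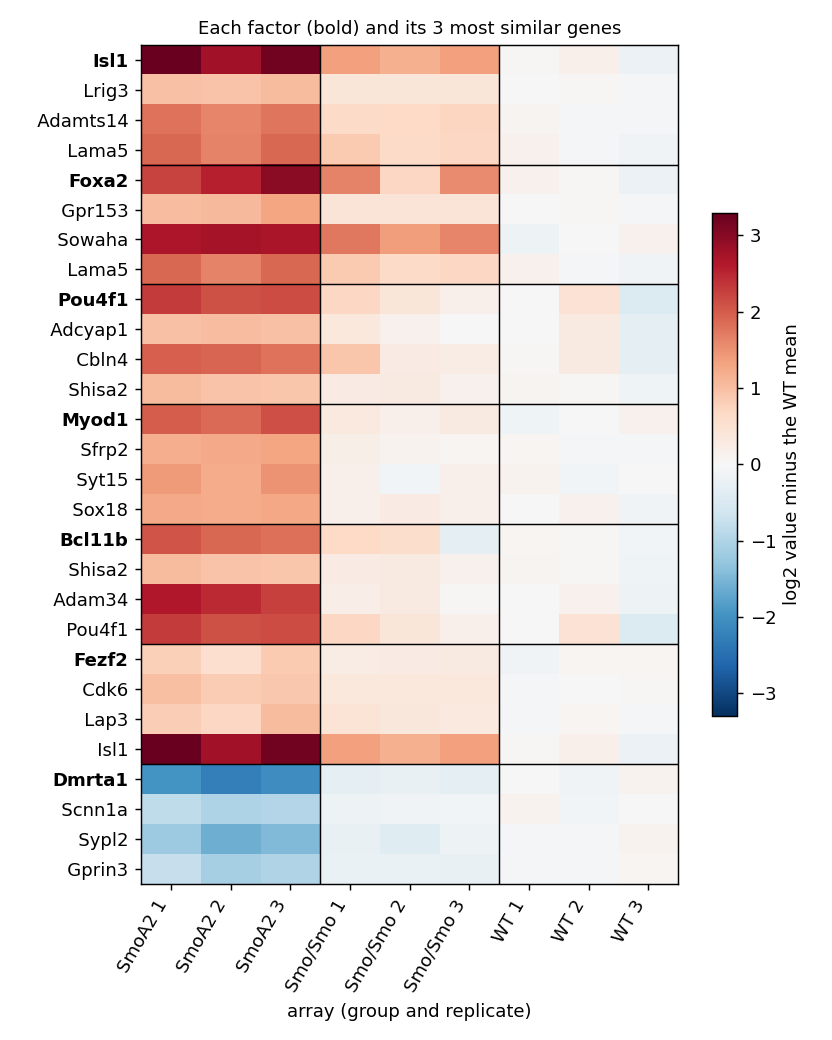
Log2 value minus the WT mean on each of the 9 arrays (columns, SmoA2, Smo/Smo and WT from left to right) for each factor in bold and the 3 genes most like it. Lama5 and Sowaha carry colour in Smo/Smo as Isl1 and Foxa2 do, while the rows around Myod1 are pale there.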

How the data were processed

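Total RNA of 9 mouse brains was hybridised to 1 Affymetrix array each. The deposited values are probe set intensity on a linear scale, which the authors summarised with RMA, per the submitters' processing notes; its version is not given in the sources used here. The log2 of each value was taken. Probe sets were named from the platform annotation: of 38385, 24478 carried 1 symbol, 65 several and 13842 none; only those with 1 symbol were used. A gene was read from its brightest probe set, by mean log2 on the 9 arrays, giving 19147 genes. In R 4.3.3 with limma 3.58.1, group means were fitted to the 9 arrays together, without covariates, for 3 comparisons. A gene was called where its p, adjusted by Benjamini-Hochberg across the 19147 genes, was under 0.05. The members and gene lists were chosen with earlier results of these data known.

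A rule set which genes could be named, and some that it picked are not printed. It took all members and measured relatives, Smo, Gli1, Ptch1, Neurod2 and Atoh1, and the 3 genes most like each member. From each list it took up to 4 called genes with the smallest p (2 where none was called). Background was read from 4 Y-linked probe sets in female mice, and a bound against it used the top of their range. The mice were separate animals by their codes. Alternatives changed the probe set, low-value filter, normalization, variance model, weights, sex covariate, groups fitted and arrays. The order of neighbours and the promoter windows came from RefSeq, GRCm38.p6. Erythrocyte markers (2 measured) gave 0 calls in either line, with 0 at an unadjusted p under 0.05 in limma. Of choroid plexus markers, 0 of 11 were called in SmoA2, with 10 at an unadjusted p under 0.05; 6 were called without WT replicate 3 and 3 without WT replicate 3 and SmoA2 replicate 3. Of granule neuron progenitor markers 4 of 12 rose (1 call without WT replicate 3 and SmoA2 replicate 3). Plots used Python 3.11.15 and matplotlib 3.10.9.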

Additional observations from a re-analysis of the deposited data

Results flagged for a closer look

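Pcp2, a Purkinje cell gene among the markers set beside Bcl11b, was lower than every WT array in all 3 SmoA2 arrays. The Smo/Smo arrays were close to WT, the lowest (3980.1) being only just above the highest WT array (3976). The log2 difference of Pcp2 between SmoA2 and Smo/Smo was -0.65 (limma adjusted p = 0.012), with -0.61 between SmoA2 and WT. Between Smo/Smo and WT it was 0.04 and not called (limma adjusted p = 0.948). With 3 arrays per group, no array was tested as an outlier.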

How the results depend on the processing

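The number of arrays limits precision, and Pou4f1, Fezf2 and the weaker probe sets of Isl1 and Bcl11b lie near background, where differences are compressed. In WT, the main probe sets of Isl1 and Foxa2 lie near it as well. Of 266 values of single members under 19 alternatives, 263 kept their side of the threshold or moved by less than the spread between replicates, and none turned. Those for SmoA2 minus WT say little, since the members were chosen on that contrast and several alternatives leave its differences unchanged by construction. Those for Smo/Smo minus WT say little for the 6 members not called in the main fit, where keeping their side meant staying uncalled. Isl1 had 2.06 in SmoA2 with the mean of its probe sets, and Foxa2 passed in Smo/Smo with an intensity trend (1.30) and without Smo/Smo replicate 2 (1.61). The number of members called in Smo/Smo was 2 with an intensity trend and 1 to 2 without 1 array. Over all genes, 515 were called in SmoA2 against WT, with 793 after low genes were left out, 235 with only those groups fitted and 234 to 445 without 1 array (253, 234 and 323 without WT replicates 1, 2 and 3, and 297 without SmoA2 replicate 1). In Smo/Smo against WT, 71 were called, with 162 under array weights, 42 with sex as a covariate, 42 with only those groups fitted and 21 to 65 without 1 array (25 without the first and 21 without the second WT array; 37, 30 and 25 for Smo/Smo arrays 1 to 3). In SmoA2 against Smo/Smo, 490 were called, with 817 after the filter, 795 with the trend, 231 with only those groups and 170 to 467 without 1 array (247 without SmoA2 replicate 1; 219, 170 and 202 for Smo/Smo arrays 1 to 3). Without WT replicate 3 and SmoA2 replicate 3 (added after seeing the data), these counts were 215, 38 and 296. Fits without 1 array have fewer samples, and the cause of the other changes was not tested. No paired analysis was possible because the labels give no replicate numbers shared between groups, and replicates were numbered in accession order.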
